A study of Mus musculus with 12 samples.

Results

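The genes described here encode 6 subunits of NMDA receptors (Grin1, Grin2a, Grin2b, Grin2c, Grin2d and Grin3a) and 4 metabotropic glutamate receptors (Grm4, Grm5, Grm7 and Grm8). They were chosen by name from the 55348 genes counted in the organ of Corti of clarin mutant mice. The 10 genes were followed over 4 genotypes at postnatal day 21, with 3 libraries each and 12 in all. Wild-type mice carried neither mutation. Clrn1-/- mice lacked exon 4 of Clrn1 in all tissues, deleted with PGK-cre. Clrn2-/- mice carried the clarinet nonsense mutation of Clrn2. Clrn1-/-Clrn2-/- mice came from crosses of both lines. The wild-type mice were bred apart from the mutants and were not littermates, so breeding and genotype cannot be told apart in any comparison with wild-type. The methods give at least 2 litters per genotype as a general rule, and they say that these organs of Corti were taken in triplicate, without saying whether each library was 1 mouse. The p-values measure the spread between these libraries, part of which may be technical.

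NMDA receptors are glutamate-gated cation channels that assemble around the obligatory GluN1 subunit, the product of Grin1, with GluN2 or GluN3 subunits (Grin2 and Grin3 genes) that set their kinetics, magnesium block and calcium entry. Metabotropic receptors act through G proteins instead. Grm5 belongs to the group I receptors, which couple to phospholipase C, and Grm4, Grm7 and Grm8 belong to group III, whose members inhibit adenylyl cyclase and often sit at presynaptic terminals. In the cochlea, inner hair cells release glutamate onto the dendrites of spiral ganglion neurons, and AMPA receptors carry most of the fast response there, while NMDA subunits have been described on the same afferent endings.

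The 6 NMDA subunits share a signature in the third membrane segment that lines the pore. Its coding sequence is shown because it is conserved across the family, and because alike genes could have shared reads. The 21 bases below are from Gencode M21 transcripts (GRCm38), on the coding strand, with the 13 bases that are the same in all 6 genes in capitals.
Grin1: TAcACtGCcAAccTgGCaGCc
Grin2a: TAcACaGCcAAccTgGCtGCc
Grin2b: TAcACtGCcAActTaGCcGCc
Grin2c: TAcACgGCcAAtcTgGCaGCc
Grin2d: TAtACaGCcAAtcTgGCtGCc
Grin3a: TAcACaGCgAActTgGCtGCt
These lie on the minus strand at chr2:25297202-25297222 (exon 15 of 21), chr16:9653450-9653470 (exon 10 of 14), chr6:135772247-135772267 (exon 10 of 14), chr11:115253752-115253772 (exon 11 of 15), chr7:45854282-45854302 (exon 8 of 12) and chr4:49770473-49770493 (exon 3 of 9), in the order given. Over all 45 pairs of the 10 receptor genes, the longest identical run between transcripts on the same strand was 12 to 34 bases, and the longest of these lay between Grin2b and Grin2c. No pair shared a run as long as a read of 100 bases.

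Promoters are shown for Grin2c and Grin2d, because the differences of these subunit genes had opposite signs in Clrn1-/- mice, and for Grm7, whose level in the double mutant departed from the sum of the single mutants. Each is the 250 bases before a RefSeq start site (GRCm38.p6, for Grm7 the first of 2), written along the gene's own strand, with GC boxes in capitals.
Grin2c: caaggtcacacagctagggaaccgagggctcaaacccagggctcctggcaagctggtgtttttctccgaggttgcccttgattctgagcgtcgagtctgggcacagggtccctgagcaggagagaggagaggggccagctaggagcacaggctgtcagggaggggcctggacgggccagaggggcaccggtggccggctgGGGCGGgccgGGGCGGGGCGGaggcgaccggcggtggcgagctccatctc
Grin2d: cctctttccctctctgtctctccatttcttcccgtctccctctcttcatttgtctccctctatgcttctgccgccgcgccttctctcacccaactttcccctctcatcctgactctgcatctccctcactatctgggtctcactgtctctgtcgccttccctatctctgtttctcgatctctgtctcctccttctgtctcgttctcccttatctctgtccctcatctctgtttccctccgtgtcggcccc
Grm7: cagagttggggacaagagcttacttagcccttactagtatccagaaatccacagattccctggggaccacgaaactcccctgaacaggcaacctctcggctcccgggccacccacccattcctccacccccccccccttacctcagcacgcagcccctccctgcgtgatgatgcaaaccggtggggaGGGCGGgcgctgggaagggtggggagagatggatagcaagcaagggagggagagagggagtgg
They correspond to chr11:115267244-115267493 on the minus strand, chr7:45866682-45866931 on the minus strand and chr6:110645262-110645511 on the plus strand. The GC box was searched as GGGCGG, or CCGCCC on the other strand. It occurred 3 times in the Grin2c window, with an overlap between neighbouring copies, 0 times in the Grin2d window and 1 time in the Grm7 window, against at least 1 copy in 32.7% of 32851 windows of this length. The cAMP response element TGACGTCA (1.55% of windows) and the E-box CACGTG (6.02%) were found in none of the 3. The Grin2d window lies inside the longer Gencode gene, which spans chr7:45831883-45878378. RefSeq windows were matched for 5 of the 10 genes (Grin1, Grin2c, Grin2d, Grm7 and Grm8).

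Sequencing gave 30008679 to 41049302 counts on genes per library, read in the kit's orientation, and 19052 genes passed the filter on low counts, all 10 receptor genes among them. Clrn1 itself was at 25.8 ± 2.47 CPM (counts scaled to a common library size, SD, n = 3) in wild-type libraries, 2.83 ± 0.184 in Clrn1-/-, 28.8 ± 2.83 in Clrn2-/- and 2.30 ± 0.482 in the double mutant. Clrn2 was at 2.72 ± 0.727, 0.916 ± 0.107, 1.23 ± 0.172 and 1.08 ± 0.138 CPM in the same order. The Clrn1-/- libraries (0.854 to 1.0389 CPM) lay narrowly below the Clrn2-/- libraries (1.0398 to 1.38 CPM), so a low Clrn2 level does not mark the Clrn2-/- genotype. All 12 hair cell markers and all 10 supporting cell markers listed were detected. Neuron markers were abundant although the modiolus had been removed, with a sum over 20 genes (among them Nefh, Nefl and Snap25) of 14785 to 16195 CPM in wild-type libraries, and none of the 20 was at 0.

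Levels of different genes are compared per length of exon, as the CPM divided by the exon length in kilobases from Gencode M21 (FPKM). In wild-type libraries Grin1 led with 26.5 ± 2.29 FPKM (SD, n = 3), followed by Grm7 with 6.53 ± 0.405. Grin2c (2.18 ± 0.259), Grm8 (2.11 ± 0.141) and Grin2d (1.84 ± 0.116) came next, and of these Grin2c and Grm8 overlapped between libraries. Grm4 stood at 0.979 ± 0.165 FPKM and Grin3a at 0.445 ± 0.0249. Grm5 (0.0457 ± 0.0183), Grin2b (0.0379 ± 0.0120) and Grin2a (0.0234 ± 0.0130) were the lowest and overlapped with their neighbours in this order. Grin2a and Grin2b, the GluN2 genes best known from the forebrain, had far fewer transcripts here than Grin2c and Grin2d.

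**Figure D1:**
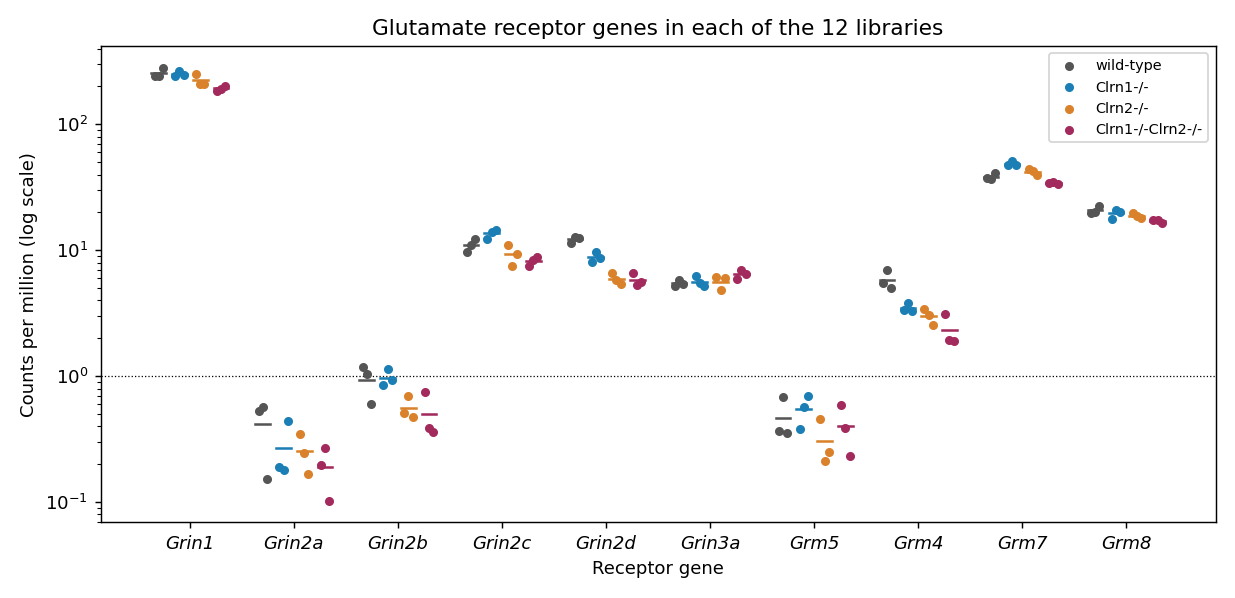
CPM on a log axis for the 10 receptor genes, with 1 point per library, a bar at the mean of each genotype and a dotted line at 1 CPM. Grin1 lies between 184.8 and 282.5 CPM in every library, and the points of Grin2a, Grin2b and Grm5 sit around or under the dotted line.

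Grin2a, Grin2b and Grm5 had a mean under 1 CPM in every genotype and are too low to judge firmly. Grin2a had 4 to 21 counts per library, Grin2b 13 to 44 and Grm5, a group I receptor, 7 to 27. Over the pairs of genotypes tested, the SE of their log2 change was 0.29 (Grin2b, Clrn1-/- against wild-type) to 0.59 (Grin2a, double mutant against Clrn2-/-). The absence of a call for Grin2a and Grm5 shows only that no difference was detectable at this depth.

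A call required 1.5-fold or more together with an adjusted p of 0.05 or less over all 19052 genes (edgeR quasi-likelihood test, Benjamini-Hochberg). Against wild-type, 1 of the 10 receptor genes was called lower in Clrn1-/- libraries (Grm4), where 3.7% of all tested genes were called lower. In Clrn2-/- libraries 2 were called lower (Grin2d and Grm4), against 1.42% of all tested genes. In Clrn1-/-Clrn2-/- libraries 3 were called lower (Grin2b, Grin2d and Grm4), against 4.02%. In none of the mutants was a receptor gene called higher by edgeR, limma-voom or DESeq2, where edgeR called 3.52%, 1.24% and 5.88% of all tested genes higher. At an unadjusted p under 0.05, 2, 1 and 1 receptor genes were higher. The 3 mutants share the wild-type libraries, and 1 to 3 calls among 10 genes are too few to set the group apart from these shares. The median log2 change over the 10 genes was 0.0068 for Clrn1-/- and -0.41 for both Clrn2-/- and Clrn1-/-Clrn2-/- libraries, while that over all tested genes was -0.0031, -0.0025 and 0.0010. By the adjusted p alone, with no minimum fold, 7 of the 10 were lower and 0 higher in the double mutant (Grin1, Grin2b, Grin2c, Grin2d, Grm4, Grm7 and Grm8 were lower), against 17.9% and 19.1% of all tested genes. Libraries did not overlap with wild-type for 2 lower and 2 higher receptor genes in Clrn1-/- (19.8% and 20.5% of all tested genes), for 3 lower and 0 higher in Clrn2-/- (14.4% and 14.6%) and for 6 lower and 1 higher in Clrn1-/-Clrn2-/- libraries (23.2% and 25%).

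**Figure D2:**
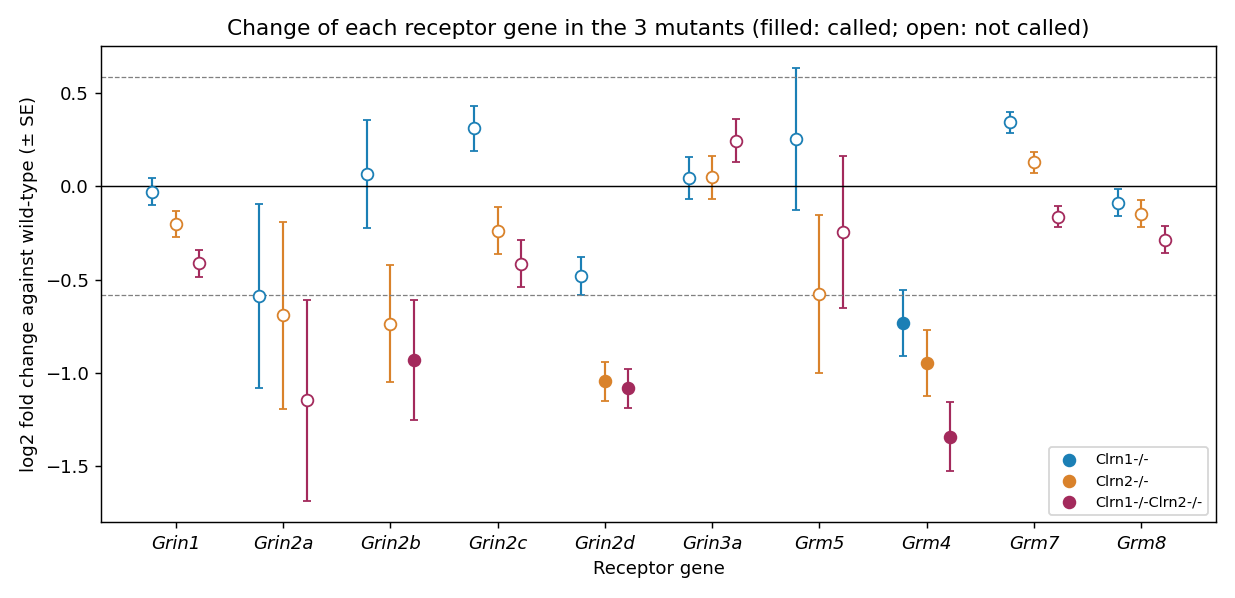
log2 fold change against wild-type with its standard error for each receptor gene in the 3 mutants, with dashed lines at 1.5-fold in either direction. Filled points were called, and these are Grm4 in all 3 mutants, Grin2d in Clrn2-/- and Clrn1-/-Clrn2-/- libraries and Grin2b in Clrn1-/-Clrn2-/- libraries.

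Grin1, which encodes the subunit present in every NMDA receptor, was counted at 8681, 8909 and 11166 reads in the wild-type libraries, or 243.9, 244.1 and 282.5 CPM. Clrn1-/- libraries had 241.8, 263.8 and 249.0 CPM, Clrn2-/- libraries 251.1, 209.2 and 209.2, and Clrn1-/-Clrn2-/- libraries 184.8, 192.3 and 201.8. All 3 double mutant libraries were below the lowest of the other 9, whereas the single mutants overlapped with wild-type. The double mutant was lower than wild-type by 1.33-fold (log2 change -0.41 ± 0.072, SE, edgeR adjusted p = 2.9e-04), which is short of the minimum fold and was not called. It was also lower than Clrn1-/- (log2 change -0.38, edgeR adjusted p = 7.4e-04) and than Clrn2-/- (-0.21, edgeR adjusted p = 0.041), again below 1.5-fold. An antisense gene, Grin1os, shares 1307 exon bases with Grin1 and had 6 to 18 counts per library in the orientation of the kit.

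Grin2d, the GluN2D gene, which confers slow deactivation and weak magnesium block, fell in both genotypes without clarin-2. It had 406, 470 and 496 counts in the wild-type libraries (11.4, 12.9 and 12.6 CPM) and 256, 372 and 332 in Clrn1-/- libraries (8.10, 9.63 and 8.62 CPM). It had 246, 191 and 191 counts in Clrn2-/- libraries (6.62, 5.85 and 5.37 CPM) and 200, 177 and 218 in Clrn1-/-Clrn2-/- libraries (6.56, 5.26 and 5.62 CPM). Every mutant library was below every wild-type library, the Clrn1-/- libraries lay between wild-type and the other mutants, and Clrn2-/- and double mutant libraries overlapped. The fall was 2.06-fold in Clrn2-/- libraries (log2 change -1.05 ± 0.10, edgeR adjusted p = 1.2e-05) and 2.12-fold in Clrn1-/-Clrn2-/- libraries (-1.08 ± 0.11, edgeR adjusted p = 8.9e-07). In Clrn1-/- libraries Grin2d was lower by 1.396-fold (-0.48 ± 0.10, edgeR adjusted p = 0.0023), under the minimum fold. The double mutant differed from Clrn2-/- by -0.04 ± 0.11 on the log2 scale (edgeR adjusted p = 0.85), and from Clrn1-/- by -0.60 ± 0.11, which was called (edgeR adjusted p = 4.8e-04). That last call was just past the minimum fold and was lost without Clrn1-/- library 2 (-0.54), without double mutant library 2 (-0.55) and with unstranded counts (-0.49). An antisense gene, Gm45441, overlaps 643 exon bases of Grin2d and had 21 to 40 counts per library.

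Grin2c, the GluN2C gene, followed another course. It had 9.69, 11.0 and 12.3 CPM in wild-type libraries, 12.4, 13.9 and 14.5 in Clrn1-/-, 11.0, 7.50 and 9.41 in Clrn2-/- and 7.54, 8.32 and 8.84 in the double mutant. The Clrn1-/- libraries were all above wild-type, by a margin that did not pass the test (log2 change 0.31 ± 0.12, edgeR adjusted p = 0.070), and the double mutant libraries were all below wild-type (-0.42 ± 0.13, edgeR adjusted p = 0.016, under the minimum fold). The fall from Clrn1-/- to Clrn1-/-Clrn2-/- libraries was 1.65-fold and was called (-0.72 ± 0.12, edgeR adjusted p = 3.2e-04). In the comparison of Clrn1-/-Clrn2-/- with Clrn1-/- libraries 4 of the 10 receptor genes were called lower (Grin2b, Grin2c, Grin2d and Grm4) and 0 higher, against 2.61% and 4.62% of all tested genes, and the median log2 change was -0.53 over the 10 and 0.0083 over all tested genes. Without single libraries this count ranged from 1 to 4, and it was 1 without Clrn1-/- library 2, 1 without double mutant library 2 and 2 without double mutant library 3. The Grin2c call was kept in each of these.

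Per length of exon, Grin2c and Grin2d transcripts were nearly even in wild-type libraries, and Grin2c exceeded Grin2d by a wider margin in all 3 mutants. The ratio of Grin2c to Grin2d FPKM was 1.12, 1.13 and 1.30 in wild-type libraries, 2.02, 1.91 and 2.23 in Clrn1-/-, 2.20, 1.70 and 2.32 in Clrn2-/- and 1.52, 2.09 and 2.08 in Clrn1-/-Clrn2-/- libraries. All 9 mutant libraries lay above the 3 wild-type libraries, and the mutants overlapped among themselves. The group means were 1.18 ± 0.097, 2.06 ± 0.16, 2.07 ± 0.33 and 1.90 ± 0.33 (SD, n = 3). For each mutant against wild-type the two-sided exact permutation p was 0.1, the smallest that 3 against 3 libraries can give. The summed FPKM of the 4 Grin2 genes was 4.09 ± 0.33 in wild-type and 4.08 ± 0.31 in Clrn1-/- libraries, and 2.78 ± 0.41 in Clrn2-/- and 2.54 ± 0.075 in Clrn1-/-Clrn2-/- libraries. The ratio of Grin1 to this sum was 6.48 ± 0.42, 6.37 ± 0.32, 8.32 ± 0.55 and 7.84 ± 0.25, with exact permutation p = 0.8, 0.1 and 0.1 for the 3 mutants against wild-type.

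**Figure D3:**
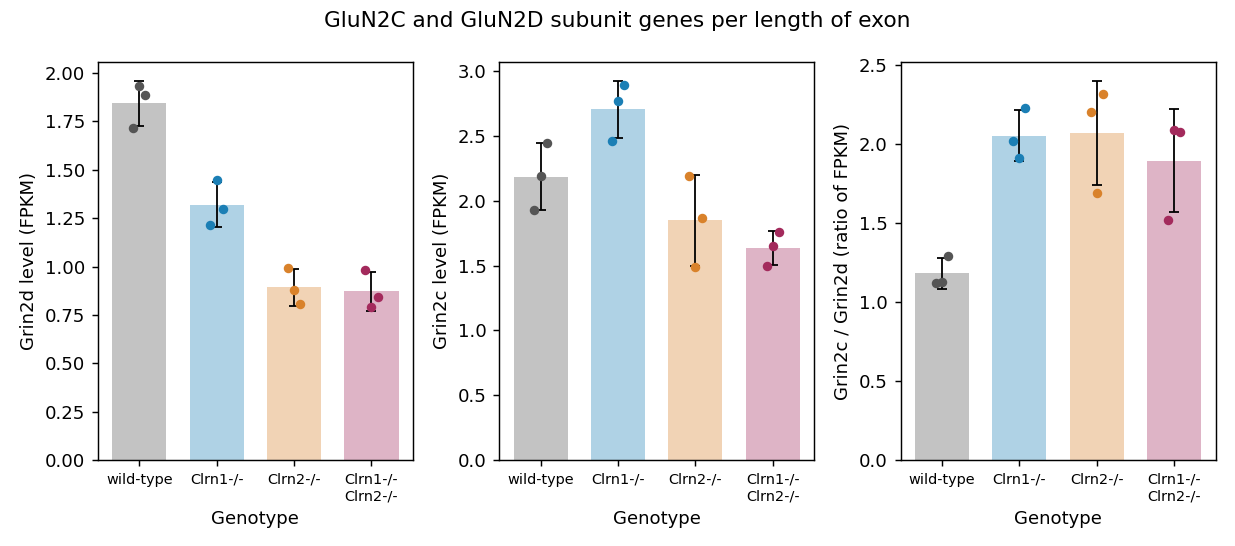
Levels of Grin2d and Grin2c in FPKM and their ratio by genotype, with bars at the mean, error bars of 1 SD and a point for each of 3 libraries. Grin2d is lower in all mutants, Grin2c is highest in Clrn1-/- libraries, and the ratio lies between 1.12 and 1.30 in wild-type and between 1.52 and 2.32 in mutant libraries.

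Grin2b, the GluN2B gene, was called in the double mutant on few reads. Its counts were 42, 38 and 24 in wild-type libraries, 27, 44 and 36 in Clrn1-/-, 19, 23 and 17 in Clrn2-/- and 23, 13 and 14 in the double mutant. In CPM the double mutant libraries overlapped with wild-type, through wild-type library 3 and double mutant library 1. The log2 change was -0.93 ± 0.32 against wild-type (edgeR adjusted p = 0.033) and -0.99 ± 0.32 against Clrn1-/- (edgeR adjusted p = 0.027). The first call was lost without wild-type library 1 (edgeR adjusted p = 0.13), wild-type library 2 (0.086), double mutant library 2 (0.12) or double mutant library 3 (0.14), and with the 2 genotypes fitted alone (0.073). The second was lost without Clrn1-/- library 2 (edgeR adjusted p = 0.10), Clrn1-/- library 3 (0.051), double mutant library 2 (0.10) or double mutant library 3 (0.12). In Clrn2-/- libraries Grin2b was not called (-0.74 ± 0.31, edgeR adjusted p = 0.14), but it was without wild-type library 3 (-0.98, edgeR adjusted p = 0.040).

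Grin2a, the GluN2A gene, had 19, 21 and 6 counts in wild-type and 6, 9 and 4 in Clrn1-/-Clrn2-/- libraries, and these groups overlapped (log2 change -1.15 ± 0.54, edgeR adjusted p = 0.11). Wild-type library 3 was the lowest of its group, and without it the gene was called (-1.57, edgeR adjusted p = 0.016). Grin3a, which encodes a GluN3 subunit that lowers calcium entry and responds to glycine, was the one NMDA subunit gene with a positive difference in all 3 mutants. It passed the adjusted p in none of them, and in Clrn1-/- and Clrn2-/- libraries its sign changed without single libraries. It had 5.17 to 5.78 CPM in wild-type and 5.93 to 6.98 in Clrn1-/-Clrn2-/- libraries, which did not overlap (log2 change 0.24 ± 0.11, edgeR unadjusted p = 0.047, edgeR adjusted p = 0.11).

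Grm4, a group III receptor gene, was the one receptor gene called in every mutant. It had 197, 254 and 200 counts in wild-type libraries (5.53, 6.96 and 5.06 CPM) and 107, 148 and 128 in Clrn1-/- libraries (3.38, 3.83 and 3.32 CPM). It had 128, 101 and 91 counts in Clrn2-/- libraries (3.44, 3.09 and 2.56 CPM) and 96, 65 and 74 in Clrn1-/-Clrn2-/- libraries (3.15, 1.93 and 1.91 CPM). All 9 mutant libraries were below all 3 wild-type libraries, while Clrn2-/- libraries overlapped with both other mutants. The gene fell 1.66-fold in Clrn1-/- (log2 change -0.73 ± 0.17, edgeR adjusted p = 0.0056), 1.93-fold in Clrn2-/- (-0.95 ± 0.18, edgeR adjusted p = 0.0020) and 2.53-fold in Clrn1-/-Clrn2-/- libraries (-1.34 ± 0.18, edgeR adjusted p = 3.0e-05). The double mutant was also lower than Clrn1-/- by 1.52-fold (-0.61 ± 0.19, edgeR adjusted p = 0.025), a call that was lost without Clrn1-/- library 2 (edgeR adjusted p = 0.086), double mutant library 2 (0.10) or double mutant library 3 (0.11). Against Clrn2-/- it was not called (-0.39 ± 0.20, edgeR adjusted p = 0.15), except without double mutant library 1, the highest of its group (-0.67, edgeR adjusted p = 0.018). Grm4 spans chr17:27422387-27521403 on the minus strand, and no gene overlaps its exons in Gencode M21.

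Grm7, the most abundant metabotropic receptor gene here and one whose product responds only to high glutamate, was highest in Clrn1-/- and lowest in Clrn1-/-Clrn2-/- libraries. It had 37.4, 36.8 and 41.2 CPM in wild-type libraries, 47.6, 51.4 and 47.2 in Clrn1-/-, 44.2, 42.3 and 39.5 in Clrn2-/- and 34.2, 34.98 and 33.9 in the double mutant. Clrn1-/- libraries were above all others and double mutant libraries below all others, with no overlap in either case, while Clrn2-/- and wild-type libraries overlapped. The difference from wild-type was 1.27-fold higher in Clrn1-/- (log2 change 0.34 ± 0.056, edgeR adjusted p = 3.3e-04) and 1.12-fold lower in Clrn1-/-Clrn2-/- libraries (-0.16 ± 0.058, edgeR adjusted p = 0.036), both under the minimum fold. In Clrn2-/- libraries it was 0.13 ± 0.057 (edgeR adjusted p = 0.16). The interaction, which is the log2 change of the double mutant less the sum of those of the single mutants, was -0.63 ± 0.081 and was called (edgeR adjusted p = 8.4e-05). Grm7 was the 1 receptor gene of 10 with a called interaction, and it was negative, as for 1.92% of all tested genes, while 3.58% had a called positive one. The double mutant was lower than Clrn1-/- by 1.42-fold (-0.51 ± 0.057, edgeR adjusted p = 7.1e-06) and than Clrn2-/- by 1.22-fold (-0.29 ± 0.057, edgeR adjusted p = 0.0015). An antisense gene, Gm20387, shares 130 exon bases with Grm7 and had 112 to 219 counts per library.

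Grm8, a further group III gene and one of the 12 spiral ganglion subtype markers listed, had 19.98, 20.3 and 22.5 CPM in wild-type and 17.5, 17.4 and 16.6 in Clrn1-/-Clrn2-/- libraries, which did not overlap. It was lower there by 1.22-fold (log2 change -0.29 ± 0.073, edgeR adjusted p = 0.0056), under the minimum fold. The single mutants differed from wild-type by -0.09 ± 0.072 (Clrn1-/-) and -0.15 ± 0.073 (Clrn2-/-), and neither passed the test (edgeR adjusted p = 0.41 and 0.20). Grm5 had 13, 25 and 14 counts in wild-type and 18, 13 and 9 in Clrn1-/-Clrn2-/- libraries, and all genotypes overlapped. Against Clrn2-/- libraries, 0 of the 10 receptor genes were called in the double mutant by edgeR, limma-voom or DESeq2, where edgeR called 1.43% of all tested genes lower and 3.67% higher. At an unadjusted p under 0.05, 2 were lower there (Grin1 and Grm7), and both also passed the adjusted p.

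Neuron markers also differed from wild-type, most in the double mutant. Their sum in the Clrn1-/- libraries was 13468 to 14090 CPM, that in the Clrn2-/- libraries 12823 to 14751 and that in the double mutant 10375 to 10563, so that all 3 double mutant libraries were below the other 9. Of the 20 markers, 0 were called by edgeR in Clrn1-/- libraries, and 0 lower and 1 higher in Clrn2-/- libraries (against 1.42% and 1.24% of all tested genes). By the adjusted p alone 10, 6 and 14 were lower and 2, 1 and 2 higher in Clrn1-/-, Clrn2-/- and double mutant libraries. Of all 19052 genes 2537, 1347 and 3415 were lower by it, and 2593, 1360 and 3632 higher. In the double mutant 6 markers were called lower (Snap25, Nefl, Nefh, Thy1, Ina and Vsnl1) and 2 higher (Prph and Gap43), against 4.02% and 5.88% of all tested genes. The 20 markers had a median log2 change of -0.46 there and a range of -0.74 to 1.02. Grin1 (-0.41) and Grin2c (-0.42) lay near that median, Grm7, Grm8 and Grin3a lay above it, and Grin2d (-1.08) and Grm4 (-1.34) lay below all 20 markers. The low genes Grin2a (-1.15) and Grin2b (-0.93) also lay below all 20. The 12 subtype markers of spiral ganglion neurons reached further, with a range of -2.69 to 1.02. In Clrn2-/- libraries the neuron markers had a median of -0.11 and a range of -0.53 to 0.91, while the receptor genes had a median of -0.41. Grin2d (-1.05) and Grm4 (-0.95) were again below all 20, and so were the low genes Grin2a (-0.69), Grin2b (-0.74) and Grm5 (-0.58). The subtype markers ranged from -2.19 to 0.91 there. In Clrn1-/- libraries the median was -0.19 over the neuron markers and 0.0068 over the receptor genes, and the lowest neuron marker was at -0.49. Grm4 (-0.73) and the low gene Grin2a (-0.59) were below all 20 there, and Grin2d (-0.48) below 19. The subtype markers ranged from -1.34 to 0.49. In bulk tissue fewer cells of a type and less RNA per cell cannot be told apart, and the part of the neuron markers in the receptor results was not tested.

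**Figure D4:**
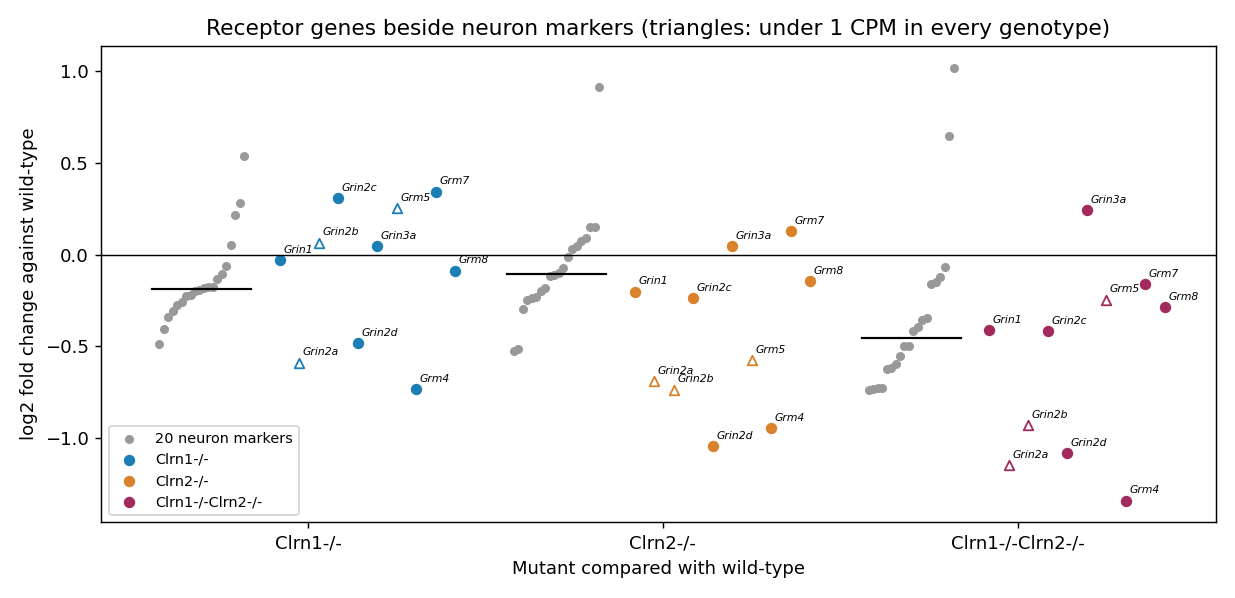
log2 fold change against wild-type of 20 neuron markers (grey, with a line at their median) and of the 10 receptor genes in each mutant, with triangles for the 3 genes under 1 CPM. In Clrn1-/-Clrn2-/- libraries Grin2d (-1.08), Grm4 (-1.34) and the triangles of Grin2a and Grin2b lie below the lowest marker (-0.74), and Grin1 (-0.41) lies near the median (-0.46).

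Markers of other cells also differed. Of all tested genes, 3.7%, 1.42% and 4.02% were called lower in Clrn1-/-, Clrn2-/- and Clrn1-/-Clrn2-/- libraries, and 3.52%, 1.24% and 5.88% higher. The counts of called markers below stand beside these shares. The 7 macrophage markers summed to 114 to 145 CPM in wild-type, 178 to 190 in Clrn1-/-, 129 to 166 in Clrn2-/- and 177 to 210 in Clrn1-/-Clrn2-/- libraries, with 2, 1 and 4 called higher in the mutants. The 12 hair cell markers summed to 3309 to 3779 CPM in wild-type, 2648 to 2813 in Clrn1-/-, 3001 to 3606 in Clrn2-/- and 2239 to 2449 in the double mutant. This sum follows Calb2, which neurons also express and which went from 2806 CPM in wild-type to 1992, 2500 and 1692 CPM in the same mutants. In the double mutant 2 of the 12 were called lower (Calb2 and Gfi1) and 3 higher (Ocm, Strc and Chrna9), 4 of the 12 had a negative difference, and the median log2 change was 0.12. In Clrn1-/- libraries 3 hair cell markers were called lower, and in Clrn2-/- libraries 3 were called higher. The 8 markers of Schwann cells and myelin summed to 20107 to 21290 CPM in wild-type and 19224 to 20564 in the double mutant, with 0 called by edgeR, limma-voom or DESeq2 and 4 at an unadjusted p under 0.05. Of 10 supporting cell markers 1 was called lower and 3 higher in the double mutant, of 8 stria vascularis markers 3 lower and 1 higher, and of 6 skeletal muscle markers, which summed to 1.63 to 3.48 CPM over all libraries, 1 lower. Of the 12 subtype markers of spiral ganglion neurons 2 were called lower and 2 higher there. In the single mutants, 2 supporting cell markers were called higher in each, 1 subtype marker was called lower in each, and 1 was called higher in Clrn2-/- libraries. No marker of these lists was at 0 in all libraries of a genotype, and their part in the receptor results was not tested.

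The genes most like the called receptor genes over the 12 libraries were found by the root mean square difference of log2 CPM after centring each gene, among 15405 or 15406 genes of at least 1 CPM. For Grin2d they were Pla2g4e (0.15), Tpbgl (0.15) and Nrip3 (0.16). For Grm4 they were Nrip3 (0.16), Grin2d itself (0.18) and Sec14l4 (0.19). Tpbgl, for example, had a mean of 72.2 CPM in wild-type libraries, 49.1 in Clrn1-/-, 41.1 in Clrn2-/- and 33.1 in the double mutant. For Grin2b they were Tnfrsf11a (0.12), Gm6145 (0.13) and Pm20d1 (0.14), where the small values come with the pseudocount of 0.5 CPM that damps the spread of a gene this low. Such likeness is one of level across libraries.

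Among other genes of these receptor families, Grin3b was called lower in Clrn1-/- (log2 change -1.21 ± 0.29, edgeR adjusted p = 0.0066) and Clrn1-/-Clrn2-/- libraries (-0.93 ± 0.29, edgeR adjusted p = 0.018) at 7 to 24 counts per library, Grm2 and Grm3 were not called in any mutant against wild-type, and Grm6 had 0 counts in all 12 libraries. Grm2 had 1 to 18 counts per library and a log2 change of -1.51 ± 0.55 in Clrn1-/- libraries (edgeR adjusted p = 0.053), so the missing call shows only that no difference was detectable at this depth. Of 7 kainate and delta receptor genes, which encode the related Grik and Grid channels, 0 were called against wild-type by edgeR, limma-voom or DESeq2. At an unadjusted p under 0.05, 5, 0 and 2 of them differed in Clrn1-/-, Clrn2-/- and double mutant libraries. By the adjusted p alone 2 were higher in Clrn1-/- libraries, as were 2593 of all 19052 tested genes. In Clrn1-/-Clrn2-/- libraries 1 was lower (Grik4) and 1 higher (Grid1) by it, against 17.9% and 19.1% of all tested genes. Of 18 genes for scaffolds and signalling partners of NMDA receptors, 1 was called lower in the double mutant (against 4.02% of all tested genes), Dlgap3, which encodes a postsynaptic scaffold protein. By the adjusted p alone 6 of the 18 were lower and 4 higher there, against 17.9% and 19.1%. Dlgap3 went from 35.2 ± 1.99 CPM in wild-type to 18.1 ± 1.26 in Clrn1-/-Clrn2-/- libraries (-0.96 ± 0.085, edgeR adjusted p = 3.4e-07), and was lower by -0.54 and -0.53 in Clrn1-/- and Clrn2-/- libraries, under the minimum fold. Dlg4, the gene of the scaffold protein PSD-95, differed by -0.24 in the double mutant (edgeR adjusted p = 1.4e-04), also under it. Of 16 partner and signalling genes of metabotropic receptors (Homer, Elfn, G protein and phospholipase genes) 0 were called by edgeR, limma-voom or DESeq2, with 8 in each mutant at an unadjusted p under 0.05. By the adjusted p alone 4 were lower and 3 higher in Clrn1-/-Clrn2-/- libraries, against 17.9% and 19.1% of all tested genes.

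NMDA receptors also need glycine or D-serine as co-agonist, and 6 genes that handle them were listed. In Clrn2-/- libraries 2 of the 6 were called lower and 1 higher (against 1.42% and 1.24% of all tested genes), and in Clrn1-/-Clrn2-/- libraries 2 lower (against 4.02%). Slc1a4, a neutral amino acid transporter that carries serine, rose from 22.9 ± 1.81 CPM in wild-type to 38.7 ± 3.65 in Clrn2-/- libraries (log2 change 0.76 ± 0.071, edgeR adjusted p = 6.4e-06). It was higher by 0.45 in Clrn1-/- and by 0.33 in Clrn1-/-Clrn2-/- libraries, under the minimum fold. Dao, which encodes D-amino acid oxidase, fell in Clrn2-/- (-0.86 ± 0.23, edgeR adjusted p = 0.021) and Clrn1-/-Clrn2-/- libraries (-0.73 ± 0.23, edgeR adjusted p = 0.021), from 2.69 ± 0.69 CPM in wild-type. Slc6a5, the neuronal glycine transporter gene, was called lower in the same mutants at 4 to 26 counts per library. Without single libraries, the number of co-agonist genes called in any mutant against wild-type ranged from 1 to 3. Of 10 genes of glutamate transport and metabolism, 1 was called lower in Clrn1-/- libraries (against 3.7% of all tested genes) and 2 in Clrn1-/-Clrn2-/- libraries (against 4.02%), and all of these are vesicular glutamate transporters. By the adjusted p alone 6 of the 10 were lower and 1 higher in Clrn1-/-Clrn2-/- libraries. Slc17a8, which loads glutamate into inner hair cell vesicles, fell in Clrn1-/- libraries (-0.89 ± 0.093, edgeR adjusted p = 4.7e-06) and was not called in Clrn2-/- (0.23) or Clrn1-/-Clrn2-/- libraries (0.12). Slc17a6 (-0.87 ± 0.046, edgeR adjusted p = 1.3e-09) and Slc17a7 (-0.65 ± 0.066, edgeR adjusted p = 1.5e-06), the transporters of glutamatergic neurons, fell in Clrn1-/-Clrn2-/- libraries.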

How the data were processed

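The organ of Corti of 12 samples was profiled by polyadenylated, strand-specific RNA sequencing with paired reads of 100 bases. The authors aligned the reads with STAR to GRCm38.p6 with a Gencode M24 annotation and deposited raw counts per gene, without normalization, filtering or pooling of replicates. The submitters' processing notes also name DESeq2. The column in the orientation of the kit was used, which held 95.2% to 95.6% of stranded counts. Totals of unassigned reads (13.5% to 15.8%) were left out. Samples were grouped by the genotype in their labels.

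The analysis ran in edgeR 4.0.16 under R 4.3.3, with filterByExpr at a minimum count of 10, TMM, 1 fit of all 12 libraries with genotype as the term, and the quasi-likelihood test with Benjamini-Hochberg adjustment over 19052 genes. Standard errors were derived from the test statistic. Exon lengths for FPKM came from Gencode M21, and 53244 of 55348 symbols matched 1 gene there. All 10 receptor genes are named, as are up to 4 called genes per list and direction and the 3 genes most like each receptor gene called against wild-type. Grm2, Grm3, Grm6, Grik3, Grik4, Grid1, Dlg4 and the markers were named after their values were seen. Some results of the lists are not reported here. The genes and lists were chosen with earlier results of these data known. Alternatives were limma-voom (limma 3.58.1), DESeq2 1.42.0, library size alone, no filter, an FPKM filter of 0.1, unstranded counts, no minimum fold, a block for the replicate number, the 2 genotypes alone and each library left out. The test was also tried on simulated data. Deviations from the group means of same-numbered libraries correlated above 0.1 in every pair for wild-type with Clrn1-/- alone (0.291, 0.134 and 0.111).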

Additional observations from a re-analysis of the deposited data

Results flagged for a closer look

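The interaction of the genotypes, tested as a term of the edgeR fit, was called for Grm7 among the receptor genes and for Grik3, Slc1a4 and Slc17a8 among the other pathway genes listed. For Grm7 it was -0.63, since the gene was higher in Clrn1-/- and lower in Clrn1-/-Clrn2-/- libraries. For Grik3, a kainate receptor gene, it was -0.79 (edgeR adjusted p = 0.0032), with 18.4 CPM in Clrn1-/- libraries against 12.3 CPM in both wild-type and the double mutant. For Slc1a4 it was -0.87 (edgeR adjusted p = 3.5e-05), since its level was higher in both single mutants than in wild-type and the double mutant (28.8 CPM) did not exceed Clrn1-/- (31.1 CPM). For Slc17a8 it was 0.78 (edgeR adjusted p = 6.3e-04), since the lower level in Clrn1-/- (15.8 CPM) was not seen in the double mutant (31.8 CPM, against 29.3 CPM in wild-type). For Clrn2 itself it was 1.38 (edgeR adjusted p = 0.0075), with the lower counts in all 3 mutants given above. It was also called for the markers Map2, Th, Tectb and Gfap (negative) and Ttn, Gjb2, Gjb6 and Cd68 (positive). An interaction was called with a negative value for 1.92% of all tested genes and with a positive one for 3.58%.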

How the results depend on the processing

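The calls of Grin2d in Clrn2-/- and Clrn1-/-Clrn2-/- libraries, of Grm4 in all 3 mutants, of Grin2c between the double mutant and Clrn1-/- and of the Grm7 interaction held in all 20 or 21 alternatives tried for each. The calls of Grin2b were lost in 5 of 20 (against wild-type) and 4 of 20 (against Clrn1-/-), and those of Grin2d and Grm4 between the double mutant and Clrn1-/- in 3 of 21 each. With no minimum fold the counts of receptor genes became 3 in Clrn1-/- and 7 in Clrn1-/-Clrn2-/- against wild-type. They became 6 (from 4) and 2 in the double mutant against Clrn1-/- and Clrn2-/- libraries. In the pathway lists, a gene was counted once if called in any mutant against wild-type, in either direction. These list counts became 4 of 7 for kainate and delta receptors, 14 of 18 for NMDA scaffolds and 5 of 6 for co-agonist genes. They became 11 of 16 for metabotropic partners and 9 of 10 for glutamate transport and metabolism. Of all 19052 genes, 2537, 1347 and 3415 were then lower in Clrn1-/-, Clrn2-/- and double mutant libraries. Another 2593, 1360 and 3632 were higher. The share of all genes called in any mutant is not given here, so the list counts cannot be weighed against it. The count for the other receptor genes was 2 with limma-voom and with no filter and 0 with unstranded counts, and that for kainate and delta receptors was 1 with library size alone. Without single libraries the counts of receptor genes ranged from 1 to 4 for the double mutant against Clrn1-/-, from 0 to 1 against Clrn2-/-, from 2 to 4 against wild-type, from 2 to 3 for Clrn2-/- against wild-type and from 1 to 2 for the interaction, where Grin2c was added without wild-type library 3 (-0.59) or Clrn2-/- library 2 (-0.63). Counts of the lists then ranged from 1 to 3 for the other receptor genes, 0 to 1 for kainate and delta receptors, 1 to 2 for scaffolds, 1 to 3 for co-agonist genes and 0 to 2 for metabotropic partners. The cause of these changes was not tested. Leaving out a library also lowers the number of samples.

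Differences that were not called and lay near 0 changed sign. Grin1 in Clrn1-/- was 0.015 with library size alone and -0.063 to 0.042 without single libraries. In the same way Grin2b in Clrn1-/- ranged from -0.18 to 0.26, Grin2d in the double mutant against Clrn2-/- from -0.14 to 0.044, Grin3a from -0.025 to 0.11 in Clrn1-/- and from -0.0094 to 0.15 in Clrn2-/-, and Grm5 from -0.61 to 0.12 in the double mutant against wild-type and from -0.040 to 0.73 against Clrn2-/-. The interaction ranged from -0.23 to 0.68 for Grin2a and from -0.31 to 0.49 for Grm5.

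With the replicate number as a block, 1, 2 and 3 receptor genes were called in Clrn1-/-, Clrn2-/- and Clrn1-/-Clrn2-/- against wild-type, 4 and 0 in the double mutant against Clrn1-/- and Clrn2-/-, and 1 in the interaction, and the block changed no call of a receptor gene. The FPKM filter removed Grin2a, Grin2b and Grm5, which then have no value, and a fit of 2 genotypes alone cannot give the interaction. Depth limits Grin2a, Grin2b, Grm5, Grin3b, Grm2 and Slc6a5, with 44 counts or fewer in any library.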
